A study of Mus musculus with 9 samples.

Results

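The promoters of 3800 expressed protein-coding genes were examined in primary mouse embryonic fibroblasts (MEFs), as regions of 1 kb on either side of the transcription start site (TSS), out of 15118 protein-coding genes and 19769 genes in all in the RNA table. These promoters were selected on measured RNA values: a gene was taken when it was protein-coding, when its mean over the 4 RNA libraries was at least 1 normalized FPK (fragments per kilobase of transcript, divided by the score of spiked-in RNA), and when no gene of the opposite strand had its TSS within 1 kb. The RNA values were therefore the basis of the choice, while the reads of accessible chromatin described here took no part in it. An opposite-strand start of the whole annotation, rather than of the genes in the RNA table, lay within 1 kb of 292 members. Just inside the limit lay Idnk, Mapk11 and Rgmb, with means of 1.0005, 1.0014 and 1.0014 normalized FPK and 106, 71 and 57 reads. Just outside it lay Nup155, Lin37 and Decr1, with means of 0.9995, 0.998 and 0.997 normalized FPK and 90, 271 and 118 reads.

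Accessibility was measured by TACh-seq, in which chromatin is digested briefly with a nuclease and the short fragments that are released from open stretches are sequenced. Per the labels, the 4 TACh-seq samples were primary MEFs grown within a few passages of isolation, of which 2 were wild-type (WT) and 2 were Fubp1 knockout cells with knockdown of Fubp2 (KOKD). WT and KOKD cells received 100 nM of non-target or Fubp2 siRNA for 48 h, and nuclei were digested with Cyanase for 3 min before fragments of 100 to 600 bp were selected. The labels of all 4 samples name a single table of reads, no column of which names a library, so WT and KOKD cells could not be told apart and all TACh-seq values are descriptions of 1 table without replicate error. The name of the table refers to a single wild-type sample, so the reads may be those of 1 WT library rather than a mixture, which no column or label settles. RNA came from MEFs of Myc-Egfp+/+ embryos that were kept for 6 h in 20 µM MG-132, which blocks the proteasome, then sorted into low-MYC and high-MYC cells by the GFP fused to MYC and seeded overnight, with 2 technical replicates per group. A single sample of FUBP1 ChIP-seq came from MEFs crosslinked for 8 min.

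A promoter is the stretch around a TSS where transcription factors and RNA polymerase assemble. At most active genes a short segment there is free of nucleosomes, so that nucleases reach it easily, and well positioned nucleosomes follow downstream of the TSS. In mammals most promoters lie in CpG islands, stretches in which the CpG dinucleotide is not depleted, and these are commonly open in many cell types, whereas a smaller class with few CpGs, often with a TATA box, serves genes that are switched on in particular cells or by signals.

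Several promoters are shown with the 150 bases before the TSS, from the reference genome GRCm38 (RefSeq), because they carry the sequence features compared below. Capitals mark the searched letters: a TATA box (the letters TATAAA beginning 40 to 21 bases before the TSS on the gene strand) or, on either strand, a CCAAT box, a GC box or an E-box, with the letters given further on. The first set holds the members with the most reads, Sp1 at chr15:102405993-102406142 (+ strand), Cic at chr7:25267554-25267703 (+ strand), Opa3 at chr7:19228184-19228333 (+ strand) and Tomm40 at chr7:19715439-19715588 (- strand).
Sp1: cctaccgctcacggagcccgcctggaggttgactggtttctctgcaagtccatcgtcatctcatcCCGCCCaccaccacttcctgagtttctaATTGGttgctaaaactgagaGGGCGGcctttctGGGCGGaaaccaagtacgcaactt
Cic: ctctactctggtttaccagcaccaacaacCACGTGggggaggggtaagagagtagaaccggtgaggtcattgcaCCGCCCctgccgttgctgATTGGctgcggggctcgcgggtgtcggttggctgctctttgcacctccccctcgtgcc
Opa3: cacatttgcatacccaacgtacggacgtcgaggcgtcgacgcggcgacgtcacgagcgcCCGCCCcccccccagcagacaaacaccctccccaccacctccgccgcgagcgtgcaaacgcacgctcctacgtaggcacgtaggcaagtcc
Tomm40: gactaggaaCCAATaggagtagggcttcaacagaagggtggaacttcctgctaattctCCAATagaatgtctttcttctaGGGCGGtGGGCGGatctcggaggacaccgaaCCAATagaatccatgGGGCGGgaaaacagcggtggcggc

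The second set holds members with a TATA box that were among the highest in RNA of those with at least 10 reads, S100a4 at chr3:90603621-90603770 (+ strand), Slc25a4 at chr8:46211285-46211434 (- strand) and Hnrnpab at chr11:51606848-51606997 (- strand).
S100a4: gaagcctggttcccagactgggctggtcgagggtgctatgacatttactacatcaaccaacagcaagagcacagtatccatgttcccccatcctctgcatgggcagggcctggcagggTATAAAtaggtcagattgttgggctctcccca
Slc25a4: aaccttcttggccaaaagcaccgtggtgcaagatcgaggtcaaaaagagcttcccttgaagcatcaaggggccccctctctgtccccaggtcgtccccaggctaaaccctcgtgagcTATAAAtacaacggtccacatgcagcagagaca
Hnrnpab: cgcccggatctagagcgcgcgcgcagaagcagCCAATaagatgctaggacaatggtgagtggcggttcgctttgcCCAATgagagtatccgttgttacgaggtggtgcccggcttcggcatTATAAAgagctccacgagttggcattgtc

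The last set holds promoters on chromosome 15 that a FUBP1 peak overlapped, of which Ccn4 has none of these letters, Myh9 at chr15:77842176-77842325 (- strand) and Ccn4 at chr15:66891170-66891319 (+ strand). Windows that held an annotated exon of any transcript were not shown, and the sets were chosen after the values were seen.
Myh9: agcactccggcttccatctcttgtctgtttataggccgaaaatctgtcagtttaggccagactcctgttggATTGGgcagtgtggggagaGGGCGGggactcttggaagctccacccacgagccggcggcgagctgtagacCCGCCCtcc
Ccn4: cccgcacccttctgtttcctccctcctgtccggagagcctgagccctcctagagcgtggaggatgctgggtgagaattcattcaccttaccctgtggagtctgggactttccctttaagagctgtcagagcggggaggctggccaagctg

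The TACh-seq table held 4881417 reads, 2438620 on the plus and 2442797 on the minus strand, with no repeated pair of start and end on a strand. The reads lay in 50031 islands with a median of 73 reads, which covered 2.76% of the autosomes and chromosome X, so the table lists selected regions and a promoter without reads is a promoter outside these regions, not one shown to be closed. Reads of the mitochondrial genome were absent, chromosome X held 0.285 reads per kb against a median of 1.91 over the autosomes (1.39 to 3.16), and 600 reads lay on chromosome Y. Fibroblast markers were expressed as the cell label requires: all 18 listed genes had a mean of at least 1 normalized FPK. Of 15 macrophage markers, 2 reached that level (Lyz2 and Cd68), while none of the endothelial, epithelial and erythroid markers in the table (7, 4 and 1 genes) did.

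Most of these promoters were accessible. The 3800 members carried a median of 144 reads within 1 kb of the TSS (quartiles 93 and 220, highest 915), and 3339 of them (87.9%, exact 95% interval 86.8 to 88.9%, counting error only) had at least 10 reads, against 67.9% of all protein-coding genes. Their windows, which made up 0.287% of the autosomes and chromosome X, held 616075 reads, or 12.6% of the table. The distribution was split: 449 members had no read, 12 had 1 to 9 reads, and 3271 had at least 50, so that the count at the limit of 10 reads hardly depended on the limit. The surroundings held fewer listed reads, with a mean of 10.8 in the stretch 3 to 5 kb upstream and 16.2 in that 3 to 5 kb downstream. The promoter window of the same length held 163. Since only selected regions are listed, a flank outside them counts as without reads, so these means are not a measured local background.

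Promoters of genes with little RNA differed in how many were listed more than in how many reads each held. Among 4386 protein-coding genes with a mean under 0.1 normalized FPK and the same distance from opposite-strand starts, the median was 0 reads, 1202 (27.4%, 26.1 to 28.8%) had at least 10 reads and 3162 had none. The mean was 4.24 times higher in the members (163 against 38.4 reads). This ratio rests on the limit chosen, since it was 9.74 against genes with a mean under 0.01 and 2.41 against those under 0.5. Without the barely expressed promoter with the most reads, 9845, the ratio was 4.51. Among promoters with at least 10 reads the ratio of means was 1.32, and the medians were 158 reads in the members and 109 in the barely expressed genes. Genes between these limits, with a mean of 0.1 to 1 normalized FPK, stood closer to the members, since 3033 of 4043 had at least 10 reads and their median was 111. Expressed genes that had been left out because an opposite-strand TSS lay within 1 kb had more reads than the members, with a median of 188.5 over 1352 promoters and at least 10 reads in 95.6% of them. These windows hold starts of 2 genes, and the ratio of the members' mean to theirs was 0.754.

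**Figure D1:**
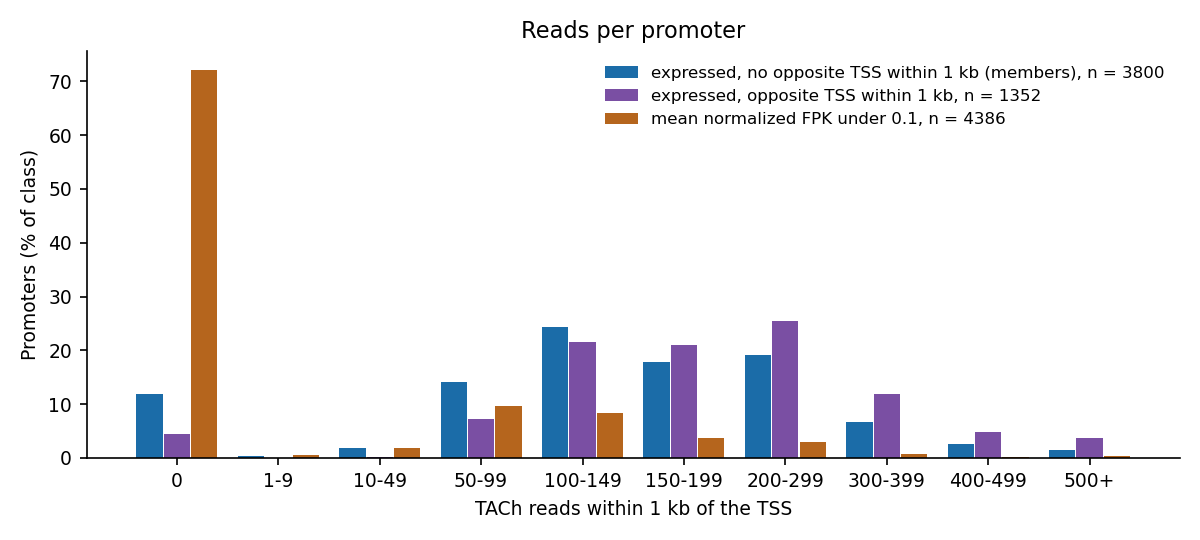
Share of promoters (vertical axis, % of each class) by the number of TACh-seq reads within 1 kb of the TSS (horizontal axis, classes of reads) for members, expressed genes with an opposite-strand TSS within 1 kb, and genes with a mean under 0.1 normalized FPK. The bars at 0 reads stand at 11.8% of the members, 4.36% of the promoters shared with an opposite TSS and 72.1% of the barely expressed genes, and the commonest class of members, 24.3%, holds 100 to 149 reads.

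Among the members with the most reads, Sp1, a transcription factor that binds GC boxes, led with 915 reads (443 on the gene strand and 472 on the opposite strand). Its own promoter holds 3 GC boxes and a CCAAT box in the bases shown above. It was followed by the transcriptional repressor Cic with 888 reads, Opa3, a mitochondrial protein, with 885, Tomm40, the channel of the mitochondrial import machinery, with 850, and Khsrp, which encodes FUBP2, with 805. Dnpep, an aspartyl aminopeptidase, had 777 reads, Ap2a1, a subunit of the clathrin adaptor AP-2, 748, Tarbp2, a partner of Dicer, 744, Spag7 707, and Fkbp2, a prolyl isomerase of the endoplasmic reticulum, 678. In all, 58 members had at least 500 reads. None of the 10 was among the 10 members with the highest RNA, and their means lay between 1.22 normalized FPK for Opa3 and 7.29 for Khsrp.

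Reads differed little by RNA level within the members. From the lowest to the highest of 5 equal classes by mean RNA, the median was 132, 136.5, 141.5, 152.5 and 158 reads, while the median RNA of these classes went from 1.20 to 16.2 normalized FPK. The highest class therefore had 1.20 times the reads of the lowest. Across the 3800 members, Spearman's rho between mean RNA and reads was 0.0884, and over the 3247 autosomal members with at least 10 reads it was 0.0896. These are descriptions across genes, which are not independent replicates, and every member had been chosen for its RNA. The share with at least 10 reads stayed between 85.3% in the lowest class and 91.6% in the one next to the highest, and was 87.8% in the highest.

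Among the 10 members with the highest RNA, 7 had no read. Actb, cytoplasmic β-actin, had 684 and 701 normalized FPK in the low-MYC and 1525 and 1636 in the high-MYC libraries, and 296 reads. Ccn2, a secreted matricellular factor, had a mean of 639 normalized FPK and 283 reads, and Rplp1, a protein of the ribosomal stalk, a mean of 479 and 128 reads. The other seven were mt-Co1, mt-Nd1, mt-Co3, mt-Nd2 and mt-Nd4, which are transcribed from the mitochondrial genome, the actin-binding peptide gene Tmsb4x on chromosome X, and the translation elongation factor gene Eef1a1. The annotated start of Eef1a1 that the table gives had no read within 1 kb, whereas another annotated transcript start of the gene, 7428 bp away, had 367.

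The 449 members without a read were therefore described by place. Of these, 8 lay on the mitochondrial genome, 53 on chromosome X, 2 on chromosome Y and 386 on autosomes. On chromosome X, 92 of 146 members (63.0%, 54.6 to 70.8%) had at least 10 reads, against 3247 of 3644 (89.1%, 88.0 to 90.1%) on the autosomes. The median of those with at least 10 reads was 109 on chromosome X and 160 on the autosomes. Among the 386 autosomal members, 126 had at least 10 reads within 1 kb of another annotated start of the same gene, at a median distance of 7397 bp, and 47 were genes annotated with 1 exon only. Examples of the first kind were Fth1, the ferritin heavy chain, with 190 reads at a start 2048 bp away, Ldha, lactate dehydrogenase A, with 243 at 4364 bp, and Tpm4, a tropomyosin, with 147 at 5085 bp. Single-exon genes were listed less often, with at least 10 reads in 61.8% of 123 autosomal members against 90.1% of 3521 with several exons. They include copies such as Rpl10-ps3 and Rps12-ps3, whose RNA values are uncertain, since reads of near-identical genes may have been split between them (not measured here). Neither description held for 213, among them Rpl8, Rpl6 and Rpl24 of the large ribosomal subunit and the secreted phosphoprotein gene Spp1, whose nearest read lay 23762 bp away. When any annotated start was allowed, 3478 members (91.5%) had at least 10 reads.

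The reads centred on the TSS and their place differed between strands. With the 5′ end of each read as its position, the mean per promoter on the gene strand was highest in the 100 bp before the TSS, at 12.1 reads, which was 9.26 times the mean of the outermost bins. On the opposite strand it was highest in the 100 bp after the TSS, at 11.2 reads and 8.37 times the outermost bins. In bins of 20 bp, the maximum lay 80 to 60 bp before the TSS for reads on the gene strand and 20 to 40 bp after it for reads on the opposite strand. Both strands fell to a low point 160 to 180 bp after the TSS, at 0.746 and 1.21 reads per bin. A second maximum followed 220 to 240 bp after the TSS, which was plain on the opposite strand (1.71 reads, 1.41 times the low point) and slight on the gene strand (0.831 reads, 1.12 times). In barely expressed genes the maximum of the gene strand in bins of 20 bp lay 60 to 40 bp before the TSS and that of the opposite strand again 20 to 40 bp after it, at 0.539 and 0.488 reads per bin. In expressed genes with an opposite-strand TSS within 1 kb, these maxima lay 120 to 100 bp before and 0 to 20 bp after it. The shift between strands was thus not particular to the members. The part of fragment length in it was not tested. In the means of the barely expressed genes a second maximum was present too. It lay 200 to 220 bp after the TSS on the opposite strand (1.60 times their low point) and 260 to 280 bp after it on the gene strand (1.33 times). Their means include a promoter with 9845 reads, whose part in this second maximum was not tested.

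**Figure D2:**
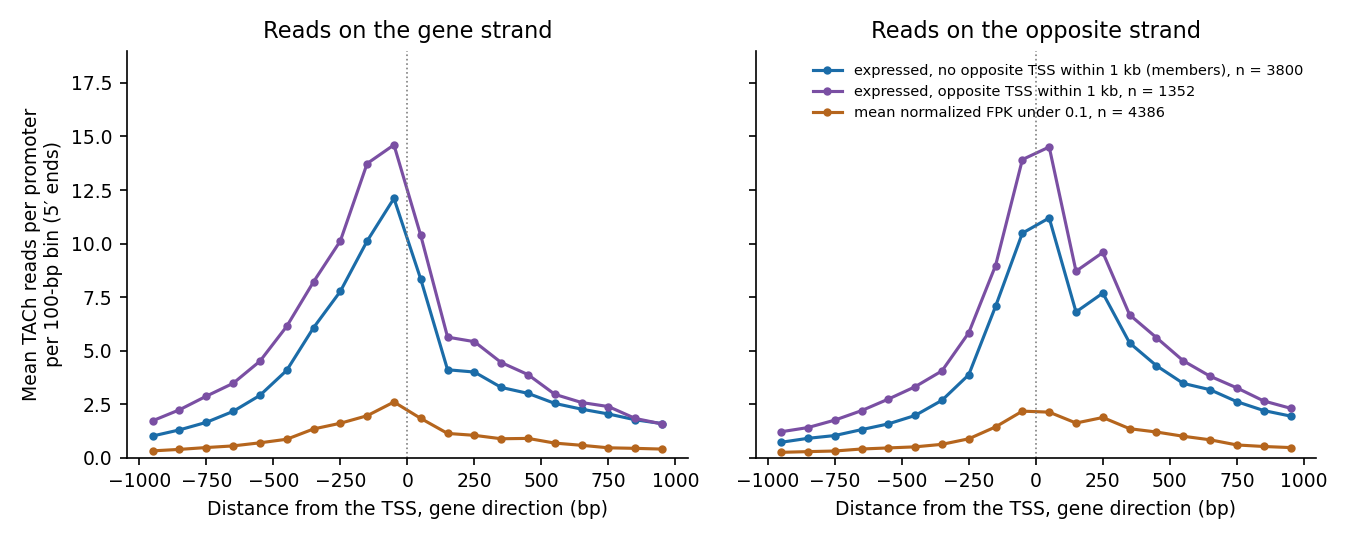
Mean TACh-seq reads per promoter and 100-bp bin (vertical axis) by distance from the TSS in the direction of the gene (horizontal axis, bp), with reads placed by their 5′ ends, for the gene strand (left) and the opposite strand (right). Lines are the members, expressed genes with an opposite-strand TSS within 1 kb, and genes with a mean under 0.1 normalized FPK, and the members peak at 12.1 reads just before the TSS on the gene strand and at 11.2 just after it on the opposite strand, with a second maximum of 7.69 at 200 to 300 bp.

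The position of a read depended on which of its ends was taken. With the leftmost base of each read, as the rule has it, both strands peaked in the 100 bp before the TSS (11.9 reads on the gene strand and 11.1 on the opposite strand), and the share of reads upstream of the TSS was 53.5% for genes on the plus strand and 45.9% for those on the minus strand. With 5′ ends these shares were 49.4% and 50.0%. Over all members 49.8% of the reads lay upstream with leftmost bases and 49.7% with 5′ ends, so the total was even. Nearer the TSS the balance tipped upstream, to 53.4% within 500 bp and 55.1% within 300 bp (leftmost bases), and by 5′ ends 59.9% of the gene-strand reads but 39.4% of the opposite-strand reads lay upstream within 1 kb.

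Single promoters departed widely from this average. Over 2737 members with at least 100 reads, the share upstream had a median of 49.3% and quartiles of 33.8 and 63.1%. Over 3274 members with at least 50 reads within 1 kb by 5′ ends, the median read lay 16 bp after the TSS (quartiles 66 bp before and 107 bp after), within 200 bp of it in 77.55% of the members, and the interquartile range of read positions within a promoter had a median of 404.5 bp (quartiles 323 and 528 bp).

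The strongest upstream excess was seen at Spred1, an inhibitor of Ras signalling, where all 137 reads lay upstream of the TSS. It was followed by the oxysterol-binding protein gene Osbp (96.7% of 636 reads), the chaperone gene Hsp90aa1 (95.7% of 282), the small GTPase gene Rap2a (94.3% of 610) and Khsrp (94.2% of 805). In Khsrp, by 5′ ends, the bin with the most reads lay 300 to 200 bp before the TSS, with 121 reads, and the median read lay 399 bp before it. Among the strongest cases of downstream excess were Paqr4 (107 reads), the lysosomal protease gene Ctsl (126), the RNA-binding protein gene Hnrnpk (199) and the reductase gene Cyb5r1 (214). By leftmost bases no read of these 4 lay upstream, while by 5′ ends 2 reads of Paqr4 and 3 of Hnrnpk did. Each of these 4 had another annotated start with more reads than the TSS used, 470, 585, 1289 and 754 bp away, with 141, 141, 333 and 252 reads. Among all members, 254 (6.68%) had at least 10 reads, and at least 2 times those of the TSS used, at an annotated start over 500 bp away.

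**Figure D3:**
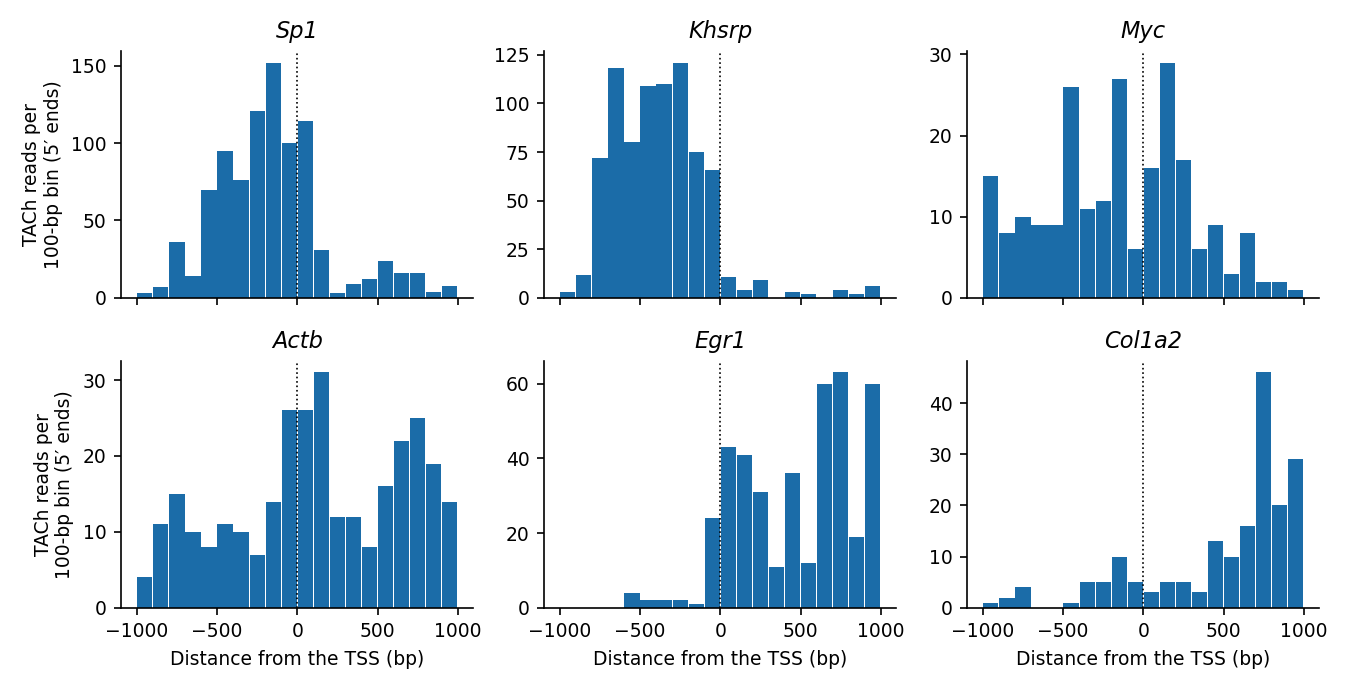
TACh-seq reads per 100-bp bin (vertical axis, both strands, 5′ ends, scale differs between panels) by distance from the TSS in the direction of the gene (horizontal axis, bp) at 6 member promoters. Sp1 peaks at 152 reads 200 to 100 bp upstream, Khsrp lies almost wholly upstream, Myc has no bin above 29 reads, and the highest bins of Egr1 (63 reads) and Col1a2 (46 reads) lie 700 to 800 bp downstream.

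The promoters with CpG island-like sequence carried more reads. A promoter was called island-like when the 250 bases before and 50 from the TSS on had a GC content of at least 50% and an observed CpG frequency of at least 0.6 of that expected from its bases. This held for 2434 members (64.1%), against 33.8% of the barely expressed genes and 56.5% of all protein-coding genes. Island-like members had a median of 161 reads and at least 10 reads in 94.5%, and the other 1366 members a median of 109 reads and at least 10 in 76.0%. Their medians of RNA were 2.76 and 2.71 normalized FPK. Among the barely expressed genes, 44.4% of the island-like promoters and 18.7% of the others had at least 10 reads. Within the island-like members the CpG ratio did not order the reads further, since Spearman's rho was -0.00346 over the 2434 members, against 0.223 over all members.

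RNA level and reads went together in both sequence classes, with small differences. In the island-like members the median went from 151 reads in the lowest to 172 in the highest of 5 classes by RNA. In the other members it was 89.5 reads in the lowest class, 124 in the one next to the highest and 119 in the highest, and the share with at least 10 reads was 70.1%, 83.9% and 74.0%.

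**Figure D4:**
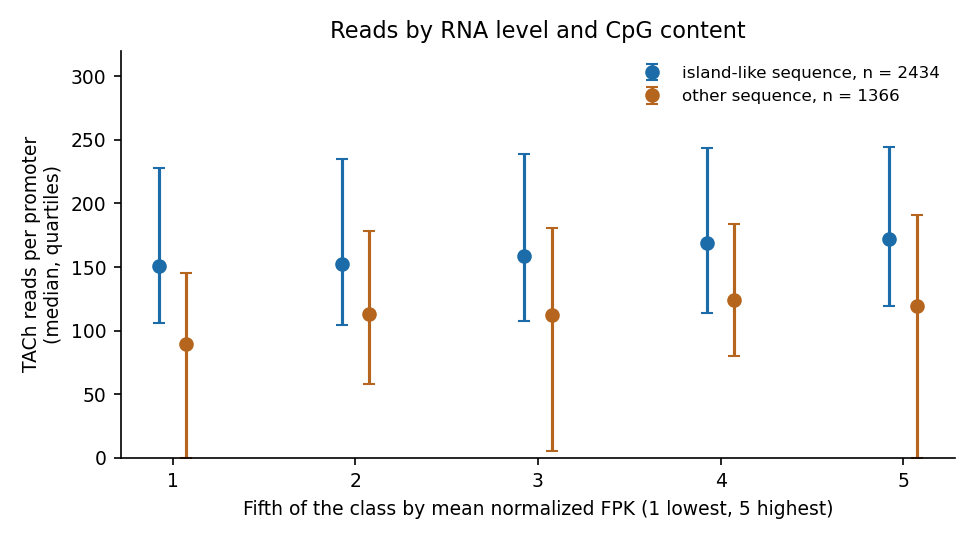
Median TACh-seq reads per member promoter (vertical axis, points, with bars for the quartiles) in 5 equal groups of each sequence class by mean normalized FPK (horizontal axis), for 2434 members with island-like sequence and 1366 others. The medians of the island-like class, 151 to 172 reads, stand above those of the others, 89.5 to 124, in each of the 5 groups.

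The place of the reads differed between these classes too. In island-like members the median read lay 9.5 bp before the TSS (median over promoters with at least 50 reads, quartiles -81.4 and 61.5 bp from it), and in the others 94 bp after it (quartiles 0 and 257.5 after). The other class had at least 2 times the reads at a distant annotated start in 15.9% of its members, against 1.52% of the island-like members. Without these members the median read of the class lay 91.5 bp after the TSS, and 38.0% of its reads lay upstream against 54.4% in the island-like class. Members whose other starts lay within 500 bp, or held fewer than 2 times the reads, were kept. The part of such starts in the difference was not tested.

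Of the short motifs, the GC box and the CCAAT box went with more reads. The GC box, GGGCGG on either strand, was found in 2365 members (62.2%, against 56.0% of all protein-coding promoters), and members with it had a median of 160 reads against 118 without. It overlaps in content with the island class, for 78.4% of the members with a GC box were island-like and 40.4% of those without. Within the island-like members the medians were 166 and 146 reads, and within the others 135 and 100. The CCAAT box, these letters on either strand, was found in 1539 members (40.5%, against 38.4%), with medians of 161 and 134 reads. Here the island-like share was nearly the same with and without the box (64.5% and 63.8%). Within the island-like members the medians were 185 and 147 reads, and within the others they were closer, 118 and 107. The interquartile range of read positions was also narrower with a CCAAT box, 364 against 427.5 bp in the island-like members and 397 against 435.25 bp in the others.

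The other motifs were rarer, and over all members the medians with and without them were nearer to each other. The ETS-type letters CCGGAAG were in 18.3% of the members (14.6% of all) with medians of 135 and 146 reads, the E-box CACGTG in 11.2% (9.35%) with 150 and 143, and the TEAD-type letters GGAATG in 12.5% (12.8%) with 142 and 145. The NRF1-type letters GCGCATGC were in 5.66% (4.48%) with 159 and 143 reads, the YY1-type letters AAGATGGC in 4.32% (3.73%) with 133 and 145, the AP-1 site TGACTCA in 3.76% (3.94%) with 142 and 144, and the CRE TGACGTCA in 3.55% (3.04%) with 140 and 145. Within the island-like members the gaps were not all small. Reads were fewer with the CRE (142 and 162), the YY1-type (141.5 and 162) and the ETS-type letters (146 and 165). These gaps were near that of the GC box there (166 and 146), in the other direction. Reads were more with the AP-1 site (177 and 160), the NRF1-type letters (170 and 160) and the E-box (165 and 160). For the TEAD-type letters both medians were 161. All were searched on both strands in the same 300 bases. A match of letters is not a bound site.

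The TATA box stood apart by RNA. Its share cannot be set against those of the other motifs, since it was searched in a much smaller space. Only the gene strand was searched, for letters beginning 40 to 21 bases before the TSS. The box was found in 46 members (1.21%, against 1.30% of all protein-coding and 2.07% of barely expressed promoters). The letters TATAAA on the gene strand began 30 to 21 bases before the TSS in 31 members and 40 to 31 bases before it in 15, but in at most 10 in any other stretch of 10 bases from 100 before to 49 after. The 46 members had a median of 6.13 normalized FPK, against 2.72 in the rest, and a median of 131.5 reads against 145. At least 10 reads were found in 76.1% of them, and in the 22 outside the island class the median was 29.5 reads. S100a4, a calcium-binding protein of fibroblasts whose promoter is shown above, had a mean of 121 normalized FPK and 182 reads.

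Listed gene groups differed in reads and in sequence. The counts below are descriptions beside the 144 reads, 87.9% and 64.1% of all members. The ribosomal protein genes, with the highest RNA (median 112 normalized FPK over 36 members), had a median of 121 reads, and 33 of 36 had at least 10. Rps19 had 540 reads and Rpl7 350, whereas Rpl6, Rpl8 and Rps4x had none and Rps2 had 17. Island-like sequence was found in 24 of the 36, and none held a TATA box.

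Chaperone genes had a median of 268 reads over 17 members, 13 of them island-like. Hspa8, the constitutive cytoplasmic Hsp70, had 553 reads, P4hb, a disulfide isomerase of the endoplasmic reticulum, 501, and Pdia4, another, 428. Hspa5, the Hsp70 of that compartment, had 254. Cryab, a small heat shock protein, had 4 reads. The inducible Hspa1b had 162 reads, of which 147 lay upstream, and its RNA value is uncertain, since reads may have been split with the near-identical Hspa1a (not measured here).

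Immediate early and AP-1 genes, which respond to growth factors within minutes, had at least 10 reads in all 22 members and a median of 225. Fosl2 led with 670 reads, followed by Jund with 424 and Egr1 with 420. Fos had 240, Junb 286, Klf6 261 and Srf, the factor that drives many of them, 323. The group was island-like in 17 of 22 members, and 3 held a TATA box (Fos, Junb and Zfp36l1). In Egr1, 381 of 420 reads lay downstream of the TSS, and in Srf 266 of 323 lay upstream.

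Actin and contractile genes had a median of 230 reads over 21 members, with 10 island-like. Myh9, non-muscle myosin heavy chain, had 624 reads, the focal adhesion protein gene Zyx 623, Vim, the intermediate filament of mesenchymal cells, 507, and Vcl, vinculin, 467. Cnn1 and Tpm4 had none at the TSS used. Acta2, smooth muscle actin, with a mean of 190 normalized FPK, had 245 reads.

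Extracellular matrix genes were the group with the fewest island-like promoters, 2 of 27, and yet 23 of 27 had at least 10 reads, with a median of 109. Lox, which crosslinks collagen, had 391 reads, Col1a1 286, Loxl1 220 and Col1a2 188. Sparc, with a mean of 66.3 normalized FPK, had 49 reads. Dcn and Lum, 2 small proteoglycans, and Loxl2 had none, and Fbn1 had 7. The median share of reads upstream was 40.3% in this group and 59.9% in the chaperones, and in Col1a2 156 of 188 reads lay downstream.

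Chemokine and cytokine genes had 3 of 11 members island-like and 2 with a TATA box, and a median of 105 reads, with at least 10 in 10 members. Ccl2, an attractant of monocytes, had 173 reads, Csf1, the growth factor of macrophages, 158, Ccl7 133 and Il6 130. Cxcl1 had 105 reads and Cxcl5 84. Ppbp had none. None of the 9 genes of the list that were in the table but not members had a read.

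The remaining groups lay near the median of all members. Proteasome genes had a median of 145 reads over 23 members, DNA replication genes 143 over 15, and mesenchymal transcription factors 174 over 11. Cdt1, a replication licensing factor, had 328 reads and Rrm2, a subunit of ribonucleotide reductase, 258, whereas Rfc2 had none. Twist1 and Prrx1, which mark mesenchyme, had 175 and 174 reads, and the factors of the Snail family Snai1 and Snai2 218 and 220.

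**Figure D5:**
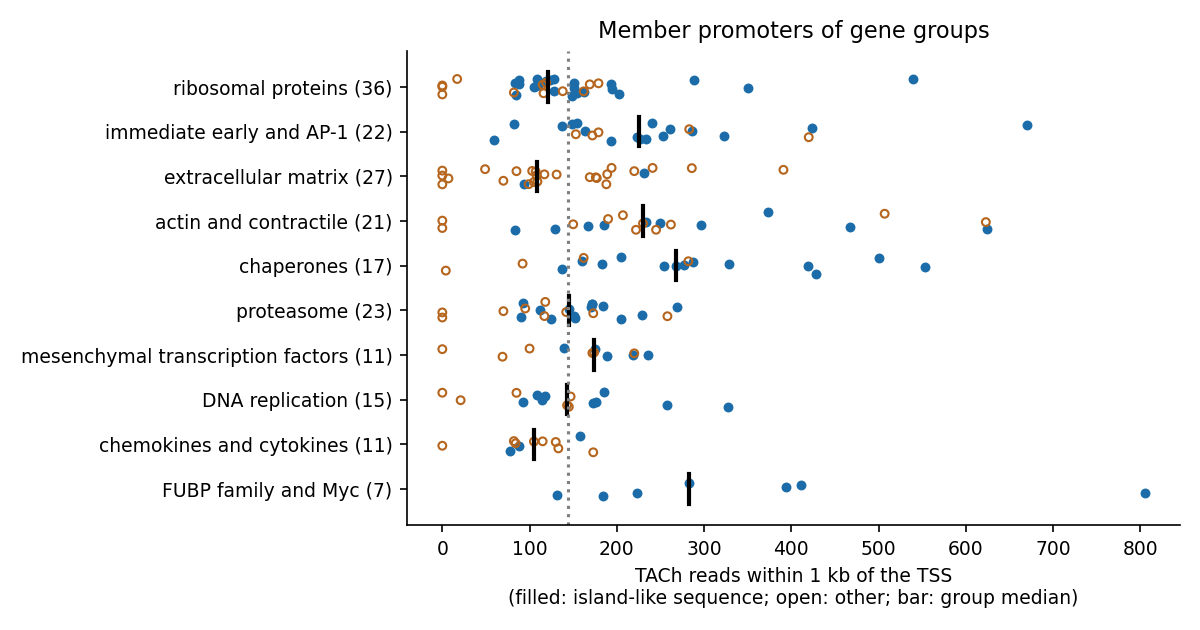
TACh-seq reads within 1 kb of the TSS (horizontal axis) for each member promoter of 10 gene groups (rows, number of members in brackets), filled where the sequence is island-like and open where it is not, with a bar at the group median and a dotted line at the median of all members, 144. Medians run from 105 reads in chemokines and cytokines to 283 in the FUBP family and Myc, and the extracellular matrix row holds nearly only open points.

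Listed genes of the FUBP family and of the MYC network, which the study is about, had a median of 283 reads over their members. All island-like members had a median of 161, and Mlx lay below it. The FUBP family are single-strand DNA-binding proteins that act on the Myc promoter, and MAX, MXD4 and MLX belong to the network of MYC partners. All 7 members of this list were island-like and had at least 10 reads. Khsrp had 805 reads, Mxd4 411, Max 394, Fubp3 283, Myc 223, Puf60, a splicing factor that also acts on the Myc promoter, 184, and Mlx 132. Fubp1 itself was not a member because a start of the opposite strand lay within 1 kb. Its window held 179 reads, against a median of 188.5 in expressed genes of that kind. At Myc, 130 reads lay upstream and 93 downstream of the TSS, the interquartile range of read positions was 657.5 bp, against a median of 404.5 bp, and the highest bin of 100 bp, at 100 to 200 bp after the TSS, held 29 reads.

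FUBP1 peaks, which lie on chromosome 15 in the deposited list of 166 peaks, overlapped the windows of 10 of 165 members on that chromosome (6.06%, exact 95% interval 2.94 to 10.9%), against 2.67% of the 599 protein-coding genes there, 1 of 181 barely expressed genes, 0 of 157 genes with 0.1 to 1 normalized FPK (which allows up to 2.32%) and 4 of 48 expressed genes with an opposite-strand TSS. The 10 members were Sp1 (915 reads), Myh9 (624), Poldip3 (388), Ccn4 (383), Rpl37 (289), Atf4 (279), Tuba1a (249), Myc (223), Slc38a2 (156) and Rpl8 (0). Their median was 284 reads, against 153 in the other 155 members of the chromosome, and their median RNA 19.8 against 2.64 normalized FPK. In 6 of the 10, among them Myc, Atf4 and Tuba1a, the peak began after the TSS, by 410, 217 and 104 bp, and in 4 it covered the TSS itself. With 1 ChIP-seq sample these counts have no replicate check, and FUBP1 and RNA were measured in separately grown cells. Peak borders were set in windows of 200 bp. The paper also reports some cross-reaction of the ChIP antibody with FUBP2, the likely source, in its reading, of signal left in Fubp1 knockout cells.

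RNA of these genes was compared between high-MYC and low-MYC cells as a description, since the members were selected on the mean of the same 4 libraries. By limma on log2(normalized FPK + 0.1), 3278 of 3800 members (86.3%) were higher at an adjusted p under 0.01 and at least 2-fold, against 55.1% of the 11870 genes tested. At the limit that the members had to pass, a mean of 1, it was 85.2% of 5608 genes, which is close to the members' share. Those 5608 genes include all 3800 members, so these shares are not independent. Selection rested on the high-MYC libraries in part: 1016 members had a low-MYC mean under 1, of which 818 were called, against 2460 of the 2784 with a low-MYC mean of at least 1. The median difference was 1.12 on the log2 scale in the members and 1.03 in all genes, and 3797 members were on the higher side. No gene passed as lower in limma (0 of 11870), while 5 genes, 2 of them members, were lower at an unadjusted p under 0.05. The 3 members on the lower side, named after their values were seen, were Hmox1, Hspa1b and Lce1h. Bringing the libraries to a common median took out the median shift of all genes by construction (median then -0.02). With it, 35 members passed as higher and 3 as lower. With a pseudocount of 1 in place of 0.1, the count of higher members was 987. The replicates were technical, so these p-values measure the spread between libraries and not between cultures.

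Myc had 9.81 and 9.86 normalized FPK in the low-MYC and 20.3 and 20.5 in the high-MYC libraries, which do not overlap, and its log2 difference was 1.04 (SE 0.0388, adjusted p = 1.04e-05, limma). For Khsrp the values were 4.49 and 4.53 against 9.82 and 10.3 (1.14, SE 0.0449, adjusted p = 1.04e-05, limma), and for Sp1 1.61 and 1.70 against 3.64 and 3.94 (1.15, SE 0.0591, adjusted p = 1.48e-05, limma). Actb differed by 1.19 (SE 0.0620, adjusted p = 1.51e-05, limma). None of these 4 calls held with libraries brought to a common median, where the log2 difference was -0.00456 for Myc, 0.0935 for Khsrp, 0.0970 for Sp1 and 0.142 for Actb (adjusted p = 0.927, 0.0528, 0.0812 and 0.0306, limma). That step takes out the median shift of all genes by construction, which the scaling to spike-in RNA retains. Genes near that shift must then lose their calls, so this loss is no check on them. With a pseudocount of 1, Myc (0.981) and Sp1 (0.849) fell under the 2-fold limit. Macrophage markers moved with the groups: the 15 genes summed to 0.631 and 0.880 normalized FPK in the low-MYC and 29.0 and 30.4 in the high-MYC libraries, led by Lyz2, lysozyme of myeloid cells, with 0.0305 and 0.142 against 17.99 and 18.94 and no TACh-seq read. All 15 were higher in both high-MYC libraries than in either low-MYC library, but the matching share over all genes was not computed. By another measure, the sign of the limma difference, 3797 of the 3800 members were also on the higher side. The direction is therefore not particular to the markers. Only 2 of the 15 had a mean of at least 1 normalized FPK, the limit for members, and 3 were under 0.1. The median log2 difference of all genes tested was 1.03. C1qa, Tyrobp and Adgre1 were listed at 0 in low-MYC replicate 1. Their part in the result was not tested, and in bulk samples more cells of a type and more RNA per cell cannot be told apart.

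The difference in RNA hardly varied between classes of TACh-seq reads. In the 461 members with under 10 reads the median log2 difference was 1.13, and in 4 classes of the remaining members by reads (11 to 110, 111 to 158, 159 to 232 and 233 to 915 reads) it was 1.11, 1.13, 1.12 and 1.13, with quartiles between 1.05 and 1.24 in all 5 classes.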

How the data were processed

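The data were 4 RNA libraries of sorted MEFs, 1 table of TACh-seq reads cited by 4 samples (WT and KOKD), and 1 list of FUBP1 ChIP-seq peaks. Per the methods, the authors aligned trimmed RNA reads with TopHat (mm10 transcripts), estimated reads per transcript in Partek Flow, and divided by transcript length and by a score of ERCC spike-in RNA. The deposited signal values are thus relative to cell number, and the depth of the libraries is unknown. TACh-seq and ChIP-seq reads were trimmed and aligned to mm10 with Bowtie2. The deposited TACh-seq reads carry a mapping score (11 to 42) and appear without duplicates and in limited regions, which sets the listed promoters. The name of the table refers to 1 wild-type sample while the labels of all 4 samples cite it. How the reads were selected is not given in the sources used here. FUBP1 peaks were called by SICER (200-bp windows, input as control).

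Members and lists were chosen with earlier results of these data known. Named genes are the 10 members with the most reads, the 10 with the highest RNA, the 5 with the fewest reads among the 500 highest in RNA (mt-Co1, mt-Nd1, mt-Co3, Tmsb4x and Eef1a1), list members, the 5 FUBP1-overlapped members with the most reads, the 5 with the strongest upstream and downstream excess among those with at least 100 reads, and 3 on either side of the RNA limit. Others were chosen after their values were seen. Some genes that the rule selects are not reported here. Of the listed symbols, 2 older ones (Ctgf and Cyr61) were matched through RefSeq synonyms.

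Reads were counted by leftmost base within 1 kb of the TSS, the Start of plus-strand and the Stop of minus-strand genes. For sequence, the Stop, which lies 1 base past the GENCODE M21 end, was corrected, and bases were read from GRCm38 with pysam 0.24.0. RNA was compared with limma 3.58.1 (R 4.3.3) on log2(normalized FPK + 0.1), with trend, leaving out genes whose mean was under 0.1, with Benjamini-Hochberg adjustment. Replicate numbers did not pair the samples by the rule applied: 2 pairs are fewer than needed, and the differences between replicates of the groups correlated at 0.0810 (Pearson) and 0.301 (Spearman). Counting and limma were tested on simulated data. Intervals are exact Clopper-Pearson at 95% and cover counting error only. Intervals used scipy 1.17.1, figures matplotlib 3.10.9, and tables pandas 2.3.3, in Python 3.11.15. Alternatives covered read position, mapping score, windows, limits, bins, scaling, replicates and the replicate block.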

Additional observations from a re-analysis of the deposited data

How the results depend on the processing

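The median of 144 reads per member changed by less than 1.5 times under every alternative tried for it. The share with at least 10 reads was 89.1% on autosomes alone and 91.5% with any annotated transcript start (both chosen after seeing the data). The ratio of mean reads to barely expressed promoters was 9.74 with these limited to a mean under 0.01 and 2.41 with a limit of 0.5. The centre of the highest bin on the opposite strand moved from 50 bp before to 50 bp after the TSS with 5′ ends. The upstream share of 49.8% was 53.4% within 500 bp, 55.1% within 300 bp, 47.4% as the median over members and 49.9% without the members that have more reads at another annotated start. FUBP1 peaks covered the TSS base of 4 members in place of 10 windows. Higher RNA was called in 987 members and 1448 genes with a pseudocount of 1, in 10076 genes with 0.01, and in 35 members and 61 genes with median rescaling. Under that rescaling the log2 difference of Myc was -0.00456, with Actb at 0.142, Khsrp at 0.0935 and Sp1 at 0.0970 (direction kept, call lost). With a pseudocount of 1, Myc at 0.981 and Sp1 at 0.849 also lost their calls. The rescaling takes out the median shift of all genes by construction. Other causes were not tested. Leaving out 1 library gave 2857 to 3486 members and 5664 to 7357 genes. In the paired fit, the replicate block left 3278 members and 6556 genes, and it changed none of the calls named. Of 130 alternatives over all results, 109 kept value or call within the limits set. With 1 TACh-seq table, values of reads have no replicate error.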
